A study of Mus musculus with 19 samples.

Results

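The comparison of urolithin A (UA) with vehicle in APP/PS1 mice used 13 of the 19 hippocampal arrays of the series. Its members were chosen by their labels alone: 6 arrays of UA-treated APP/PS1 mice and 7 arrays of vehicle-treated APP/PS1 mice. Mice of the UA group carried the APP/PS1 genotype and were gavaged with UA in DMSO from 6 to 8 months of age at a daily dose of 200 mg per kg. The APP/PS1 vehicle group had the same genotype, age and gavage with DMSO alone. The remaining 6 arrays came from wild-type (WT) littermates of the same age given DMSO and enter here only to help estimate the spread and as a reference level. All 19 animals therefore received DMSO. APP/PS1 mice express the mutant human transgenes that give the strain its name from a mouse prion protein vector and deposit amyloid in the brain. As each group has as many arrays as the design text gives it mice, an array was counted as 1 mouse.

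Gut bacteria produce UA from the ellagitannins of pomegranate, berries and nuts, and the compound is best known as an inducer of mitophagy. In mitophagy the kinase PINK1 and ubiquitin ligases, or receptors built into the outer mitochondrial membrane, mark damaged mitochondria, which autophagosomes then carry to lysosomes. In amyloid models, microglia around plaques take up a state that depends on the receptor TREM2 and its adaptor TYROBP, with high transcript levels of complement C1q, Fc receptors, cathepsins and lysosomal genes, and neighbouring astrocytes raise Gfap. The question that the design poses is which hippocampal transcripts differed in APP/PS1 mice after UA.

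Levels are log2 of the green array signal relative to the 75th percentile of the same array, so a level of 0 is a probe as bright as that percentile. Differences are UA minus APP/PS1 vehicle on the same log2 scale, with the standard error (SE) of a limma fit. The 75th percentile lay between 902 and 1394 intensity units on UA arrays and between 664 and 1417 on vehicle arrays, and the share of probes well above background ran from 51.4% to 59.4% over the 19 arrays. The 13 arrays lay on 3 slides: vehicle replicates 1 and 2 on slide 1, vehicle replicates 3 to 7 and UA replicates 1 to 3 on slide 2, and UA replicates 4 to 6 on slide 3. Sex, read from Xist and Y-linked genes, was female on 1 of 6 UA arrays and 3 of 7 vehicle arrays. Vehicle replicate 3 was the dimmest array. Correlations ran from 0.949 to 0.991 among vehicle arrays and from 0.980 to 0.993 among UA arrays. Along the main axis of variation of the 13 arrays (first principal component), vehicle replicates 3 (-79.8) and 7 (68.6) lay at opposite ends. The mean level of 20 choroid plexus genes ran from -4.73 on vehicle replicate 3 to 2.74 on vehicle replicate 7, and it was low on UA replicates 1 and 3 and on vehicle replicates 3 and 5. Prnp, whose brightest probe separates the transgenic strain from WT, was at 8.04 ± 0.23 (SD, n = 6) in UA arrays, 8.06 ± 0.15 (n = 7) in vehicle arrays and 6.38 in WT arrays, and the range of each APP/PS1 group lay above that of WT.

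No gene passed the test. Of 25599 genes, 0 (0%) had an adjusted p under 0.05 in limma, and the smallest adjusted p was 0.0995. Small unadjusted p-values were nevertheless more frequent than a uniform distribution gives: 3959 genes (15.5%) lay under 0.05, where 1280 would. Of these, 2402 (9.38% of all genes) were lower in UA and 1557 (6.08%) higher. With fewer arrays, the excess was not seen within slide 2 alone, where 3 UA arrays met 5 vehicle arrays and 1166 genes (4.55%) lay under 0.05. At the looser limits of an adjusted p under 0.10 and under 0.30, 86 genes (0.336%) and 3417 genes (13.3%) were counted. All 6 UA arrays lay below all 7 vehicle arrays for 140 genes (0.547%), and above them for 76 genes (0.297%). Differences were small: the median over all genes was -0.01, the median SE 0.13, and 118 genes differed by over 2-fold. Everything below describes differences that did not pass the adjusted test, and unadjusted p-values under 0.05 are given as counts to be read against 9.38% lower and 6.08% higher.

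Many microglial transcripts were on the lower side. The complement genes C1qa, C1qb and C1qc encode the chains of C1q, which tags synapses and debris for uptake by microglia. C1qb, on chromosome 4, ranged from 1.53 through a median of 1.67 to 1.83 in vehicle arrays, and from 0.78 through 1.27 to 1.44 in UA arrays. The groups did not overlap, the log2 difference was -0.53 (SE 0.11, 1.45-fold lower, limma adjusted p = 0.0995), and the lowest UA arrays, replicates 5 and 6, both lay on slide 3. C1qa stood at 1.97, 2.05 and 2.14 (lowest, median, highest) in vehicle arrays and 1.33, 1.65 and 1.92 in UA arrays. It too showed no overlap, with a difference of -0.44 (SE 0.09, adjusted p = 0.0995). Cfp, which encodes the complement stabiliser properdin, had the largest difference of the 14 measured complement genes, -0.73 (SE 0.15, adjusted p = 0.0995), with UA arrays between -1.07 and -0.51 and vehicle arrays between -0.55 and 0.39. C1qc differed by -0.45 (SE 0.11), and C4b, which has a near-identical neighbour that its probe may not tell apart, by -0.61 (SE 0.15). Of these 14 genes, 10 were below 0 and 6 had an unadjusted p under 0.05, all lower, and the median difference was -0.25 against -0.01 over all genes. As a ratio of green to red signal, a scaling described further on, the list's median was -0.07.

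The Fc receptor chain Fcer1g and the receptor gene Fcgr3, which together let microglia bind antibody-coated material, showed the same separation. Fcer1g lay at 1.53, 1.82 and 1.89 in vehicle arrays and at 1.05, 1.31 and 1.49 in UA arrays, a difference of -0.48 (SE 0.10, adjusted p = 0.0995). For Fcgr3 the vehicle arrays lay between -0.74 and -0.45 and the UA arrays between -1.27 and -0.90, a difference of -0.47 (SE 0.10). No UA array reached the lowest vehicle array for either gene. Among 21 measured Fc and phagocytic receptor genes, 10 were lower and 1 higher at an unadjusted p under 0.05, and the median was -0.27 (-0.18 as a green to red ratio).

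Subunits of the phagocyte NADPH oxidase, the enzyme with which myeloid cells make superoxide, were also on this side. Cyba, which encodes its membrane subunit p22phox, ranged from 1.58 to 1.95 (median 1.82) in vehicle arrays and from 1.04 to 1.51 (median 1.33) in UA arrays, with no overlap and a difference of -0.51 (SE 0.10, adjusted p = 0.0995). Other subunits, taken after their values were seen, gave -0.27 (SE 0.09) for Ncf4, -0.19 (SE 0.06) for Rac2 and -0.14 (SE 0.09) for Ncf1.

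The plaque-associated microglia list holds genes known to be raised in microglia that touch amyloid. Trem2, the lipid-sensing receptor of these cells, lay at 2.88, 3.15 and 3.52 in vehicle arrays and at 2.17, 2.58 and 3.01 in UA arrays, and the WT arrays lay between 1.36 and 1.70. The groups of APP/PS1 arrays overlapped slightly, and the difference was -0.58 (SE 0.13, adjusted p = 0.0995). Tyrobp, its signalling adaptor, differed by -0.57 (SE 0.13, adjusted p = 0.0998), from 2.36 to 3.06 in vehicle and from 1.78 to 2.51 in UA arrays. Cd52, a leukocyte surface glycoprotein, differed by -0.74 (SE 0.16), with a median of 0.98 in vehicle arrays and 0.29 in UA arrays. Cst7, a cathepsin inhibitor and a defining marker of the state, was at 0.47 to 1.20 in vehicle arrays, -0.65 to 0.84 in UA arrays and -5.83 to -4.39 in WT arrays, a UA minus vehicle difference of -0.95 (SE 0.25, adjusted p = 0.127). The integrin gene Itgax, another defining marker, differed by -0.63 (SE 0.18). In all, 20 of 24 measured genes of the list were below 0, 10 were lower and 0 higher at an unadjusted p under 0.05, and the median was -0.25. The 4 members above 0 were Apoe 0.32, Spp1 0.30, Lpl 0.20 and Ank 0.15, none with an unadjusted p under 0.05. On Apoe, vehicle replicate 3 was at 5.17 and the other vehicle arrays between 8.03 and 8.20.

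**Figure D1:**
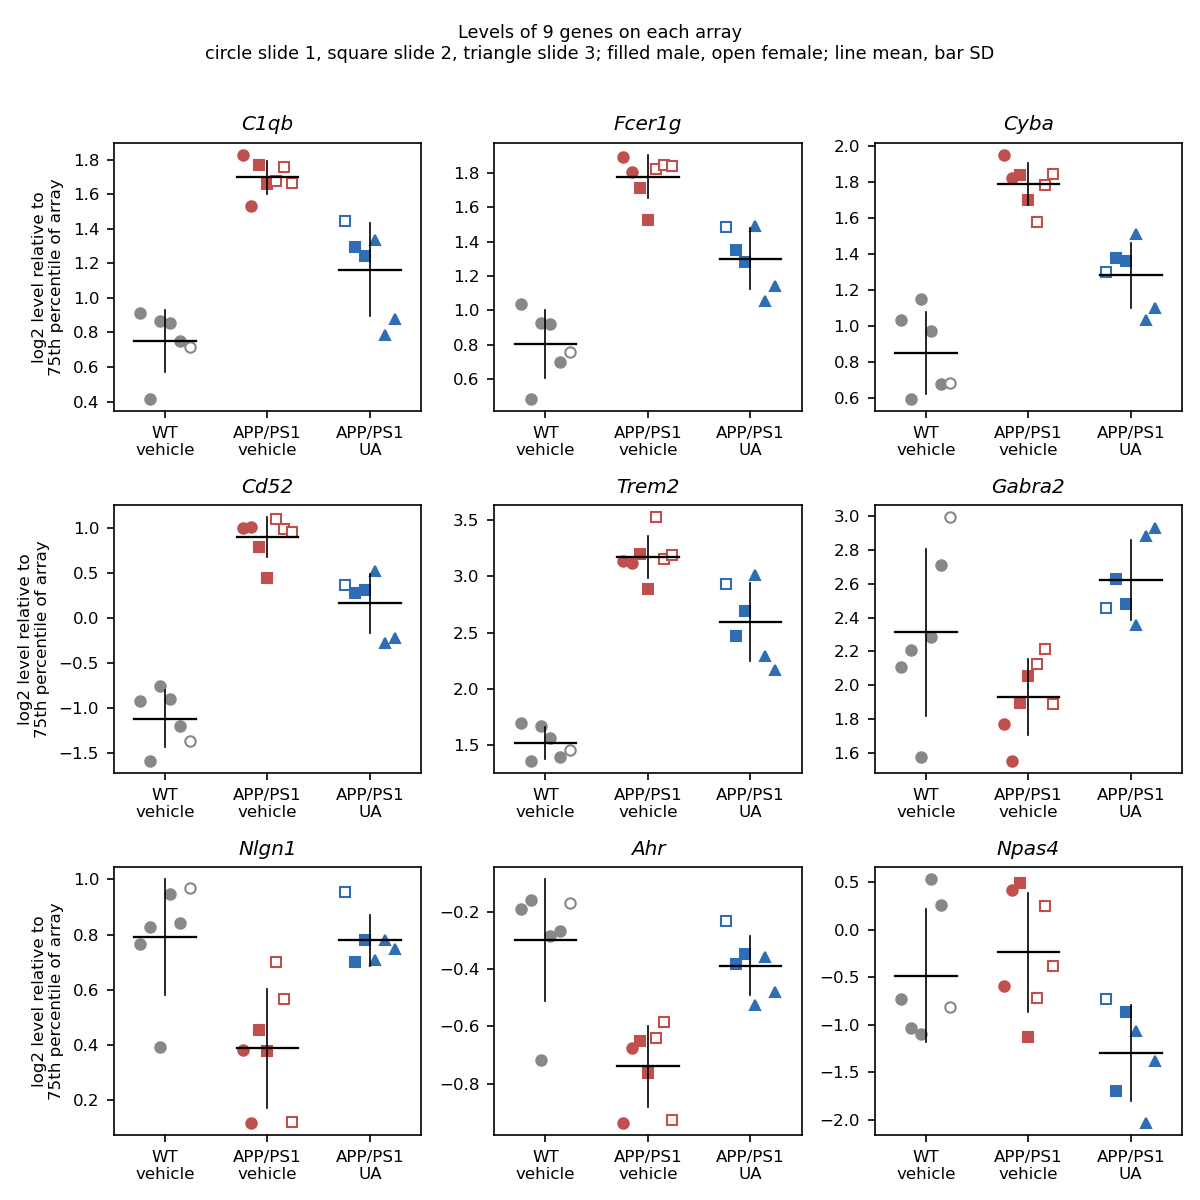
Levels of 9 genes on each array (vertical axes, log2 relative to the array's 75th percentile; horizontal axes, the 3 groups), with symbols for slide, fill for sex, and lines and bars for the mean and SD of each group. UA arrays lie below all vehicle arrays for C1qb, Fcer1g and Cyba and above all of them for Gabra2 and Ahr, whereas the groups overlap for Npas4.

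Genes of homeostatic microglia were on the lower side as well. Selplg, a selectin ligand that marks resident microglia, lay between 1.56 and 1.70 in vehicle arrays and between 0.94 and 1.52 in UA arrays, without overlap, and differed by -0.36 (SE 0.09, adjusted p = 0.126). Irf8, a transcription factor that microglia need, differed by -0.32 (SE 0.09, adjusted p = 0.150), and Csf1r, their survival receptor, by -0.26 (SE 0.09, adjusted p = 0.210). The fractalkine receptor gene Cx3cr1 was at a median of 3.14 in vehicle arrays and 2.94 in UA arrays, a difference of -0.21 (SE 0.08). P2ry12, a purinergic receptor gene used to define resting microglia, was at -0.02 and 0.06 in the same order, a difference of 0.06 (SE 0.25). Of the 18 measured genes of this list, 15 were below 0, 8 lower and 0 higher at an unadjusted p under 0.05, with a median of -0.22 over all arrays and -0.13 on slide 2. The list's mean level was 0.42 and 0.44 on UA replicates 5 and 6 of slide 3 and between 0.64 and 0.84 on the other UA arrays. In bulk tissue, fewer microglia and less RNA per microglial cell cannot be told apart.

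Promoter sequences are shown for 3 of the genes above, all with a match to GAGGAA, the core recognised by the myeloid factor PU.1. Matches are in capitals (TTCCTC where the match is on the other strand). The sequences are the 120 bases before the annotated start, 5′ to 3′ on the gene's strand, from RefSeq's GRCm38.p6 table: C1qb at chr4:136886201-136886320 (minus strand), Fcgr3 at chr1:171059404-171059523 (minus strand) and Trem2 at chr17:48346281-48346400 (plus strand).
C1qb: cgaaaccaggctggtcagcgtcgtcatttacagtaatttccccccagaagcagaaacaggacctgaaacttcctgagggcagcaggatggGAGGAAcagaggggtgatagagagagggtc
Fcgr3: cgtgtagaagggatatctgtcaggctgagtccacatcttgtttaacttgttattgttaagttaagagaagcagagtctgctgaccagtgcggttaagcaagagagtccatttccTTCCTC
Trem2: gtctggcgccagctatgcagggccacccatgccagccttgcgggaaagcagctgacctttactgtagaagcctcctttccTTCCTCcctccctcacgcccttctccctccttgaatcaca
The match began 30 bases before the start in C1qb, 40 in Trem2 and 6 in Fcgr3. Over the 250 bases before the start and both strands, 28 of 59 genes (of 82) of the plaque-associated, homeostatic, complement and Fc receptor lists with a promoter entry held GAGGAA (47.5%), against 23.1% of 27025 promoters in the table. The lists were drawn up by gene function and include members that were not lower in UA, so this share does not bear on the UA difference. A match is a description of the letters, not a measured binding site.

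The lysosomal aspartic protease gene Ctsd lay at 5.33, 5.53 and 5.69 in vehicle arrays and at 4.69, 5.11 and 5.27 in UA arrays, with no overlap and a difference of -0.46 (SE 0.12, adjusted p = 0.126). Ctsh, a cysteine protease gene, differed by -0.36 (SE 0.12). Of 29 measured lysosomal genes, 8 were lower and 0 higher at an unadjusted p under 0.05, but the list's median of -0.06 was close to that of all genes.

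Antigen presentation and interferon genes formed another group on the lower side. H2-Q10, a class I-like gene of a family with near-identical copies that its probe may not tell apart, had the smallest p among the genes named here. It lay between -1.54 and -0.69 in vehicle arrays and between -1.89 and -1.58 in UA arrays, without overlap, and differed by -0.62 (SE 0.12, adjusted p = 0.0995). The immunoproteasome genes Psmb8 and Psmb9, which trim peptides for class I, differed by -0.42 (SE 0.12) and -0.34 (SE 0.10), and the class I heavy chain gene H2-D1 by -0.43 (SE 0.15). Of 12 measured class I and immunoproteasome genes 5 were lower at an unadjusted p under 0.05, with a median of -0.30. Stat2 and Irf9, transcription factors of the interferon response, differed by -0.21 (SE 0.07) and -0.37 (SE 0.13). Among 25 interferon-stimulated genes, 24 were below 0 and 10 were lower at an unadjusted p under 0.05, with a median of -0.37, the lowest of the 46 lists. The mean level of the list was -0.81 on female and -1.23 on male vehicle arrays, the lowest of which was replicate 3 at -1.82, and it was -1.42 on the female UA array and -1.44 on male UA arrays. The list median was -0.19 when male arrays alone were compared, -0.34 with sex as a covariate and -0.55 without vehicle replicate 3. The class I median was -0.12 in males. For 7 class II genes the median was -0.25 over all arrays, -0.43 on slide 2, 0.35 in males and, with 1 array left out at a time, between -0.48 (vehicle replicate 3) and -0.08 (vehicle replicate 7), and the per-array mean was lowest on vehicle replicate 3 (-2.95) and UA replicate 1 (-2.54), the arrays lowest in choroid plexus genes. Apart from the male arrays and the covariates given further on, the part of sex and of choroid plexus content in these differences was not tested.

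Of 15 measured cytokine and inflammasome genes, 5 were lower and 0 higher at an unadjusted p under 0.05, with a median of -0.09. Cd86, a costimulatory receptor gene of antigen-presenting cells, differed by -0.38 (SE 0.09, adjusted p = 0.101), with vehicle arrays from -2.60 to -2.28 and UA arrays from -2.99 to -2.61 and no overlap. Tgfb1, an anti-inflammatory cytokine gene, differed by -0.30 (SE 0.09). Il1b, a proinflammatory cytokine gene, was well above background on 4 of 7 vehicle arrays and on 0 of 6 UA arrays, so no fold difference is given. Its means were -4.64 in vehicle and -5.49 in UA arrays (limma adjusted p = 0.206). Vehicle replicate 1 was far the highest at -3.51, and the groups overlapped, with UA replicate 3 at -4.98 and vehicle replicate 3 at -5.09.

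Gfap, the intermediate filament gene of reactive astrocytes, lay at 3.23, 3.51 and 3.71 in vehicle arrays and at 2.76, 3.08 and 3.37 in UA arrays, with WT arrays between 2.09 and 2.64. Its difference was -0.40 (SE 0.12, adjusted p = 0.159). UA replicates 1 and 2 lay inside the vehicle range, toward its lower end, and UA replicate 4 lay just below that range. The oncostatin receptor gene Osmr differed by -0.29 (SE 0.10) and the iron-binding lipocalin gene Lcn2 by -0.34 (SE 0.14). Of 15 reactive astrocyte genes 5 were lower and 0 higher at an unadjusted p under 0.05, with a median of -0.20, which was -0.03 as a ratio of green to red signal. The 11 genes of astrocyte identity, such as the water channel gene Aqp4 (-0.03, SE 0.09), had a median of 0.03 and none under an unadjusted p of 0.05.

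**Figure D2:**
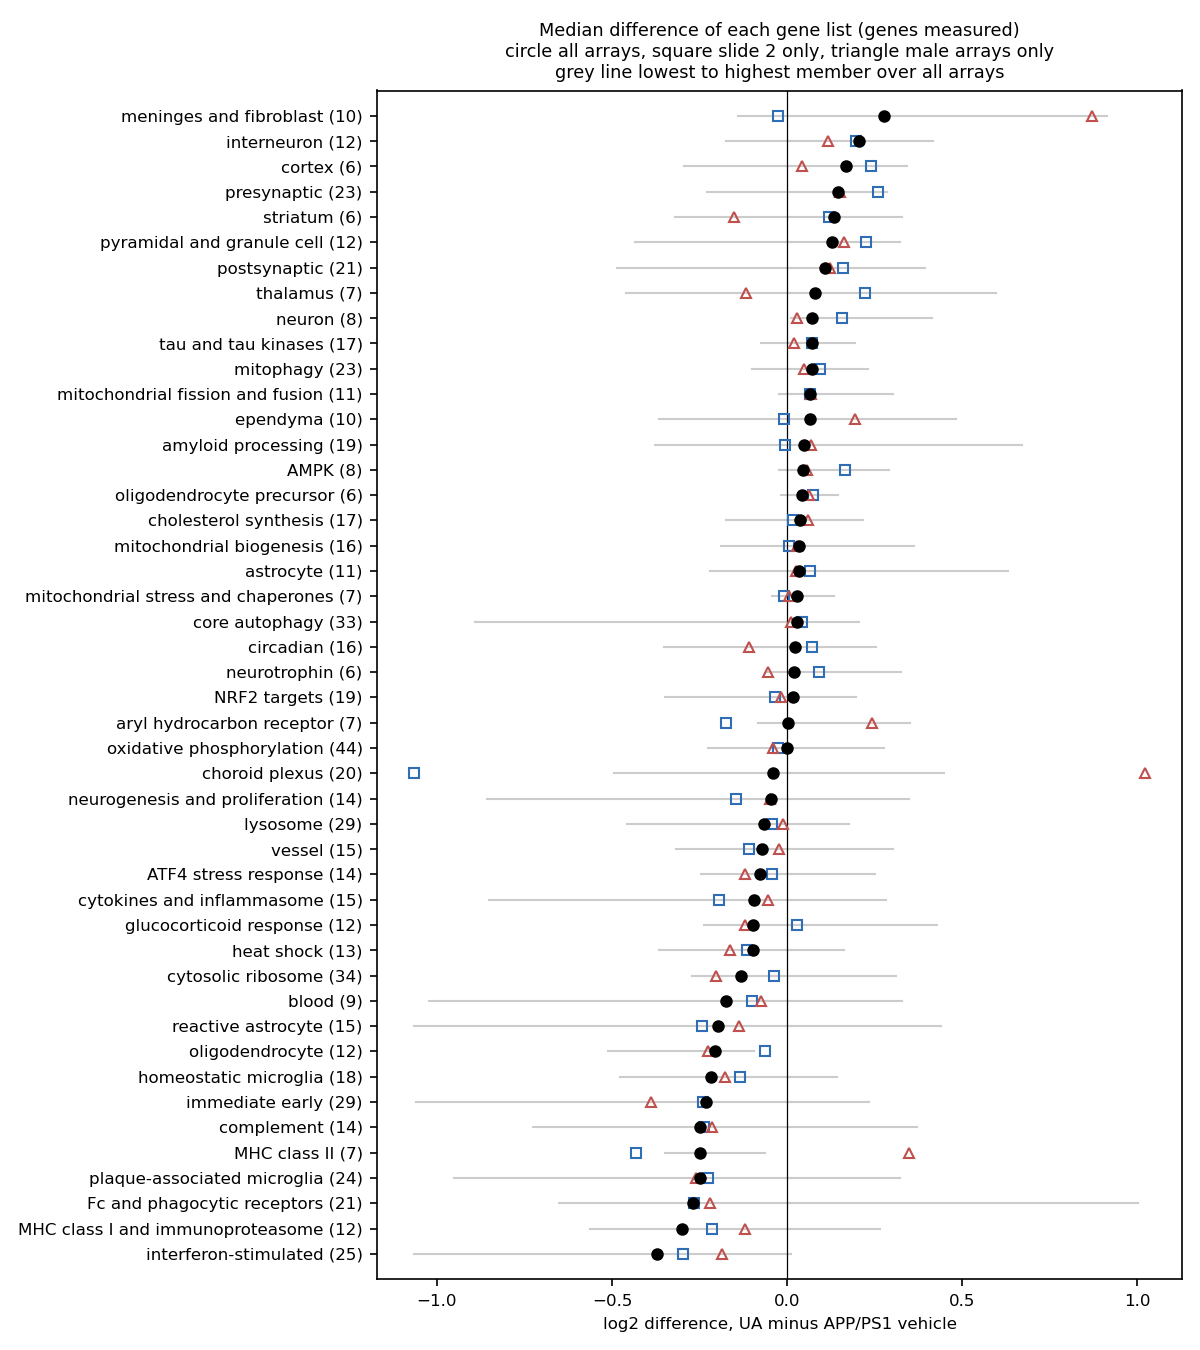
Median log2 difference, UA minus APP/PS1 vehicle (horizontal axis), of the measured genes of each of 46 lists (vertical axis), for all arrays, slide 2 only and male arrays only; grey lines span the lowest to the highest member. The interferon, class I and Fc receptor lists lie lowest over all arrays, and the choroid plexus list moves from -1.07 on slide 2 to 1.02 in males.

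Genes of mitophagy, the process UA is best known to induce, differed little. Pink1, the kinase that starts the pathway, lay at 4.47, 4.61 and 4.85 in vehicle arrays and at 4.55, 4.74 and 4.84 in UA arrays, a difference of 0.06 (SE 0.08, adjusted p = 0.715). Sqstm1, the cargo adaptor p62, differed by -0.03 (SE 0.07), and Bnip3, a mitophagy receptor of the outer membrane, by 0.02 (SE 0.08). For each of these 3 genes the groups overlapped. The members with an unadjusted p under 0.05 were Usp15, a deubiquitinase that opposes mitophagy (0.20, SE 0.06, adjusted p = 0.162), and Nipsnap1, a matrix protein that can act as a signal for mitophagy (0.23, SE 0.11, adjusted p = 0.317). The 5 measured Usp15 probes ran from -0.01 to 0.20, with 1 lower and 4 higher. All 23 members lay between -0.10 and 0.23, 18 of them above 0, with a median of 0.07. The list's mean level was 2.46 ± 0.04 (SD, n = 6) in UA arrays and 2.38 ± 0.07 (n = 7) in vehicle arrays, and these overlapped.

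Core autophagy genes were similar. Of 33 members, 2 were higher and 1 lower at an unadjusted p under 0.05, with a median of 0.03. The exception in size was Atg9a, which encodes the lipid scramblase of the growing autophagosome: it lay between -1.88 and -0.50 in vehicle arrays and between -2.99 and -1.83 in UA arrays, a difference of -0.89 (SE 0.23, adjusted p = 0.126). Vehicle replicates 3, 4 and 5 (-1.86, -1.82 and -1.88) lay near the highest UA array. The extremes were vehicle replicates 2 and 7 (-0.89 and -0.50) and UA replicate 6 (-2.99). Pik3r4, the regulatory subunit of the autophagy lipid kinase, and Gabarapl1, a member of the family that is joined to autophagosome membranes, each differed by 0.19 (SE 0.07 and 0.08). A second Gabarapl1 probe differed by 0.02. Map1lc3b, the LC3B gene, differed by -0.09 (SE 0.06), and Tfeb, the transcription factor of lysosome and autophagy genes, by -0.04 (SE 0.09).

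Genes that set the number and shape of mitochondria were on the higher side in single cases. Ppargc1a, the coactivator PGC-1 alpha, lay at 1.27, 1.54 and 2.07 in vehicle arrays and at 1.74, 1.93 and 2.28 in UA arrays, a difference of 0.36 (SE 0.11, adjusted p = 0.169), and only vehicle replicates 5 and 6 lay within the UA range. Prkaa2 and Prkaa1, the catalytic subunits of the energy sensor AMPK, differed by 0.29 (SE 0.10, adjusted p = 0.195) and 0.21 (SE 0.09, adjusted p = 0.270). Tfb1m, a mitochondrial rRNA methyltransferase gene, differed by 0.18 (SE 0.07), Polg, the mitochondrial DNA polymerase gene, by -0.19 (SE 0.07), and Tfam, the packaging factor of mitochondrial DNA, by -0.02 (SE 0.07). At an unadjusted p under 0.05, 3 of 16 biogenesis genes were higher and 1 lower, 2 of 8 AMPK genes were higher and 0 lower, and 1 of 11 fission and fusion genes (Gdap1, 0.23, SE 0.10) was higher. The list medians were 0.03, 0.05 and 0.07. Nuclear genes of oxidative phosphorylation centred on 0.00, with 2 of 44 higher and 1 lower: the succinate dehydrogenase gene Sdha at 0.28 (SE 0.08), the complex I gene Ndufa10 at 0.23 (SE 0.09) and the cytochrome oxidase gene Cox7c at -0.23 (SE 0.09). Their second probes differed by 0.03, 0.14 and -0.03 in the same order.

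**Figure D3:**
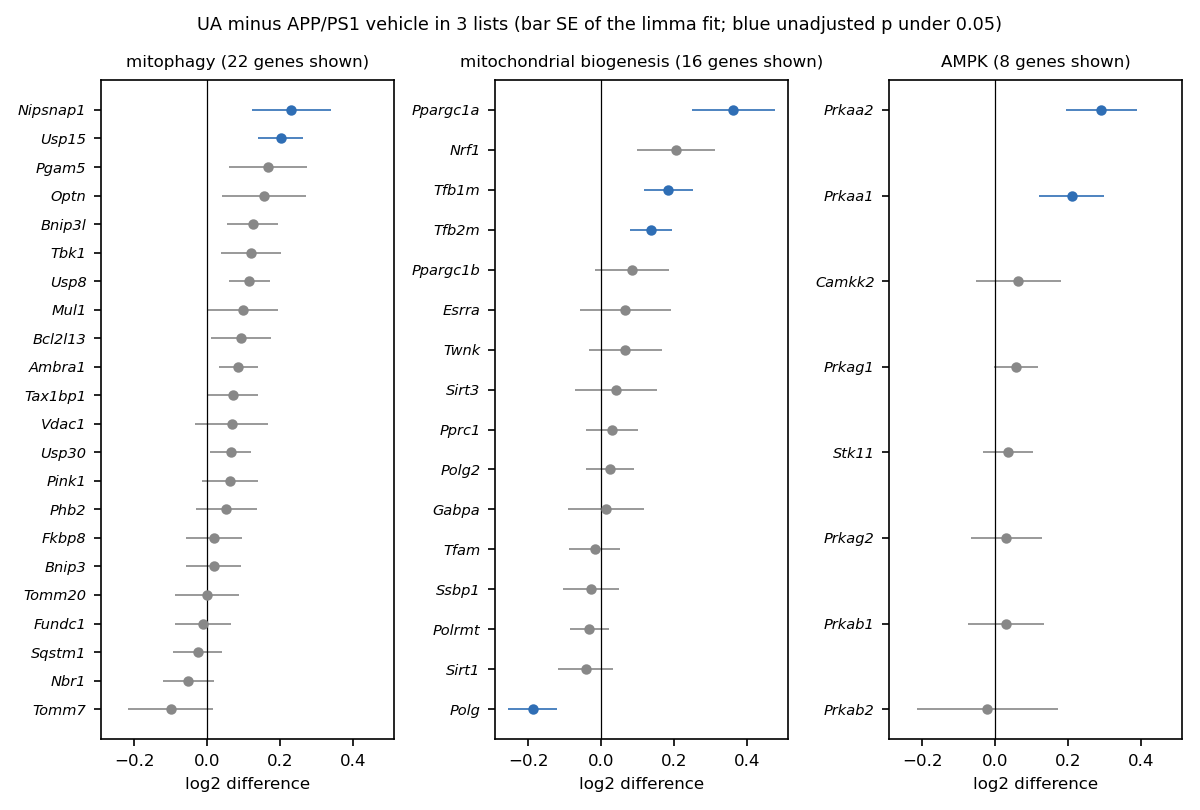
Log2 difference, UA minus APP/PS1 vehicle (horizontal axes), of the genes shown (vertical axes) of the mitophagy, mitochondrial biogenesis and AMPK lists, with the SE of the limma fit as bars and unadjusted p under 0.05 in blue. Mitophagy genes lie between -0.10 and 0.23, and the largest differences are those of Ppargc1a and Prkaa2.

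Synaptic and neuronal transcripts lay mostly on the higher side. Gabra2, a subunit of the GABA-A receptor, was at 1.55, 1.90 and 2.22 in vehicle arrays and at 2.36, 2.55 and 2.93 in UA arrays, with no overlap and a difference of 0.69 (SE 0.18, adjusted p = 0.126). WT arrays spanned 1.58 to 2.99. Nlgn1, a postsynaptic adhesion molecule of excitatory synapses, lay between 0.12 and 0.70 in vehicle arrays and between 0.70 and 0.95 in UA arrays, which just did not overlap; its difference was 0.39 (SE 0.10, adjusted p = 0.132). Slitrk1, another synaptic adhesion gene, differed by 0.47 (SE 0.11, adjusted p = 0.103), with 1 vehicle array, replicate 5 at 2.02, inside the UA range. The vesicle fusion gene Vamp2 differed by 0.21 (SE 0.09), Elavl4, a neuronal RNA-binding protein gene, by 0.41 (SE 0.17), and Calb1, a calcium buffer of granule cells, by 0.31 (SE 0.13). Against this direction, Camk2a, the kinase of synaptic plasticity, differed by -0.36 (SE 0.13, adjusted p = 0.214), and Unc13a, a vesicle priming factor, by -0.23 (SE 0.09). Of 23 presynaptic genes 19 were above 0, 3 higher and 1 lower at an unadjusted p under 0.05, with a median of 0.15. Of 21 postsynaptic genes 14 were above 0, 3 higher and 2 lower, with a median of 0.11. Interneuron genes had a median of 0.20 with 0 of 12 under an unadjusted p of 0.05 in either direction. Counts of 3 in 23 and 3 in 21 are to be read against 6.08% of all genes. As a ratio of green to red signal, Gabra2 (-0.04), Dlgap1 (-0.28) and Calb1 (-0.30) changed sign, as did the interneuron (-0.07) and postsynaptic (-0.04) medians, and the presynaptic median was 0.06.

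Immediate early genes, which neurons switch on within minutes of activity, included some of the largest single differences in the lists. Npas4, an activity-dependent transcription factor of neurons, lay at -1.12, -0.38 and 0.49 in vehicle arrays and at -2.03, -1.22 and -0.73 in UA arrays, a difference of -1.06 (SE 0.32, 2.08-fold lower, adjusted p = 0.165). Arc, which controls trafficking of glutamate receptors, ranged from 2.47 to 4.85 in vehicle arrays and from 2.42 to 2.92 in UA arrays, a difference of -0.90 (SE 0.29, adjusted p = 0.187). The nuclear receptor gene Nr4a1 ranged from 2.55 to 4.92 in vehicle arrays and from 2.73 to 3.19 in UA arrays, a difference of -0.77 (SE 0.28, adjusted p = 0.216). Fos and Egr2, transcription factors of the same response, differed by -0.87 (SE 0.33) and -0.92 (SE 0.34). Npas4, Arc and Nr4a1 all overlapped between groups. For Arc the UA arrays were close together and the vehicle arrays spread (SD 0.19 and 0.75), as for Nr4a1 (0.18 and 0.79), whereas the SD of Npas4 was 0.50 in UA and 0.63 in vehicle arrays. WT arrays lay between 2.81 and 4.16 for Arc and between 3.54 and 4.29 for Nr4a1. Of 29 genes, 8 were lower and 0 higher at an unadjusted p under 0.05, and the median was -0.23 over all arrays, -0.24 on slide 2 and -0.39 in males. The mean level of the list was 0.33 to 0.56 on UA arrays and 0.40 to 1.17 on vehicle arrays, and it was not tested against time of dissection, which the labels do not give.

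The promoters of Npas4 and Nr4a1 are shown as examples of the list; capitals mark TGACG, the short form of the cAMP response element to which CREB binds, or CGTCA where the match is on the other strand. They are the 200 bases before the start of Npas4 at chr19:4989972-4990171 (minus strand) and the 250 bases before that of Nr4a1 at chr15:101266596-101266845 (plus strand), 5′ to 3′ on the gene's strand, from the same RefSeq table.
Npas4: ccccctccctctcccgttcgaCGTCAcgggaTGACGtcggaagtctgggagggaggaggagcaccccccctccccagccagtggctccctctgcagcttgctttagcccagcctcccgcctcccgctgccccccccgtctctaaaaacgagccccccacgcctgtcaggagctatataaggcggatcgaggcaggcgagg
Nr4a1: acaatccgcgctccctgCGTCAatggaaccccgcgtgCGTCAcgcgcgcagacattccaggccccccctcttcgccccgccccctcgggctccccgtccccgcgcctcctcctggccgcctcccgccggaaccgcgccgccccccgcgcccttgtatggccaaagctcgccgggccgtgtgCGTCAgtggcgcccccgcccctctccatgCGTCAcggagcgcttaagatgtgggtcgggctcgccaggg
Npas4 held 2 matches, beginning 179 and 169 bases before the start, and Nr4a1 held 4, at 233, 213, 69 and 40 bases. Over 250 bases and both strands, 13 of 21 immediate early genes (of 29) with a promoter entry held TGACG (61.9%), against 17.9% of all promoters in the table. This list, too, was drawn up by gene function and includes members that were not lower in UA, so the share does not bear on the UA difference. Nor is a match here a measured binding site.

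Genes of amyloid handling had mixed signs. Mme, the amyloid-degrading protease neprilysin, lay between -3.91 and -2.80 in vehicle arrays and between -2.93 and -2.51 in UA arrays, a difference of 0.52 (SE 0.16, adjusted p = 0.162). Aph1a, a subunit of gamma-secretase, differed by -0.38 (SE 0.12, adjusted p = 0.171), and Lrp1, a clearance receptor for amyloid and lipoproteins, by -0.23 (SE 0.11). App differed by 0.15 (SE 0.10) at its brightest probe and by -0.04 over the mean of its probes. The list of 19 genes had a median of 0.05. Of 17 tau and tau kinase genes, the kinase activator gene Cdk5r1 (0.19, SE 0.07) and the casein kinase gene Csnk1d (0.14, SE 0.07) had unadjusted p-values under 0.05, and Mapt, which encodes tau, differed by -0.02 (SE 0.10).

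The remaining genes of smallest p belonged to no single list. On the lower side, Cd300c2, a myeloid activating receptor gene, differed by -0.49 (SE 0.09), Myo1f, an unconventional myosin of immune cells, by -0.65 (SE 0.13), and Lat2, a signalling adaptor of myeloid and mast cells, by -0.61 (SE 0.17, no overlap). Lacc1, a gene of macrophage metabolism, was well above background on 6 of 7 vehicle arrays and on 1 of 6 UA arrays, so the size of its difference is not given. Kcp, a secreted regulator of bone morphogenetic proteins, differed by -0.42 (SE 0.08), the Mediator gene Med12 by -0.31 (SE 0.06) and the corepressor gene Tle2 by -0.35 (SE 0.07). Among small noncoding RNAs, Snord7, a small nucleolar RNA, differed by -0.74 (SE 0.15) and Rn7s1, a 7SL RNA with many near-identical copies, by -0.60 (SE 0.14). Igflr1 (-0.74), Ankrd23 (-0.76), Rgs11 (-0.68), Lcn6 (-0.68) and Numb (-0.52), the last a Notch inhibitor, completed the largest non-overlapping differences below 0. Vehicle replicate 7 was the highest vehicle array for each of these genes. It was at 1.39 for Igflr1 (other vehicle arrays -0.11 to 0.87) and at -2.96 for Lcn6 (others -4.14 to -3.53). For Rgs11 it was at 1.96 (others 0.81 to 1.68) and for Ankrd23 at -2.68 (others -3.79 to -2.85). The Igflr1 groups were only just apart, with the highest UA array at -0.13.

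On the higher side, the lowest p belonged to Rbm22, a spliceosome component, at 0.38 (SE 0.07), followed by Sntg2, a syntrophin of the membrane cytoskeleton, at 0.63 (SE 0.12). Sntg2 lay between -3.57 and -2.88 in vehicle arrays, between -2.79 and -2.26 in UA arrays and between -3.04 and -2.51 in WT arrays. Dek, a chromatin protein, was within 2.96 to 3.15 in vehicle arrays and 3.17 to 3.63 in UA arrays, a difference of 0.33 (SE 0.07). The zinc finger genes Zfp9 (0.38, SE 0.08) and Zfp319 (0.35, SE 0.08), the galactosyltransferase gene B3galt1 (0.32, SE 0.07), the protein kinase A subunit Prkar2a (0.32, SE 0.07) and the sodium pump partner Nkain2 (0.24, SE 0.05) likewise did not overlap. Med26, another Mediator gene, differed by 0.31 (SE 0.07), Eva1a by 0.33 (SE 0.07), the neddylation cofactor Dcun1d1 by 0.35 (SE 0.08), the F-box gene Fbxo11 by 0.25 (SE 0.06), the cilium gene Ccdc65 by 0.48 (SE 0.11) and the coactivator Wbp2 by 0.29 (SE 0.07). The second probe differed by 0.01 for Fbxo11 and 0.005 for Nkain2, and 2 of the 3 Wbp2 probes were lower, down to -0.05. Of 50 named genes with several probes measured, 44 had all of them on the same side. The largest non-overlapping differences above 0 were those of Chst9, a sulfotransferase gene, at 0.92 (SE 0.23), and Gpr22, an orphan receptor gene, at 0.72 (SE 0.24), followed after Gabra2 and Sntg2 by Mrpl51 (0.44), Ppp1r3f (0.42) and Rap2b (0.40). Vehicle replicate 3, the dimmest array, lay far below the other vehicle arrays for Gpr22 (-2.29 against -1.24 to -0.56) and Mrpl51 (3.42 against 4.35 to 4.55). The same held for Ppp1r3f (-1.97 against -1.31 to -0.78), so these 3 differences rest in part on that array. Ahr, the aryl hydrocarbon receptor gene, lay between -0.94 and -0.59 in vehicle arrays and between -0.53 and -0.23 in UA arrays, without overlap, a difference of 0.35 (SE 0.09, adjusted p = 0.126), while the 7 measured genes of its list had a median of 0.00.

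**Figure D4:**
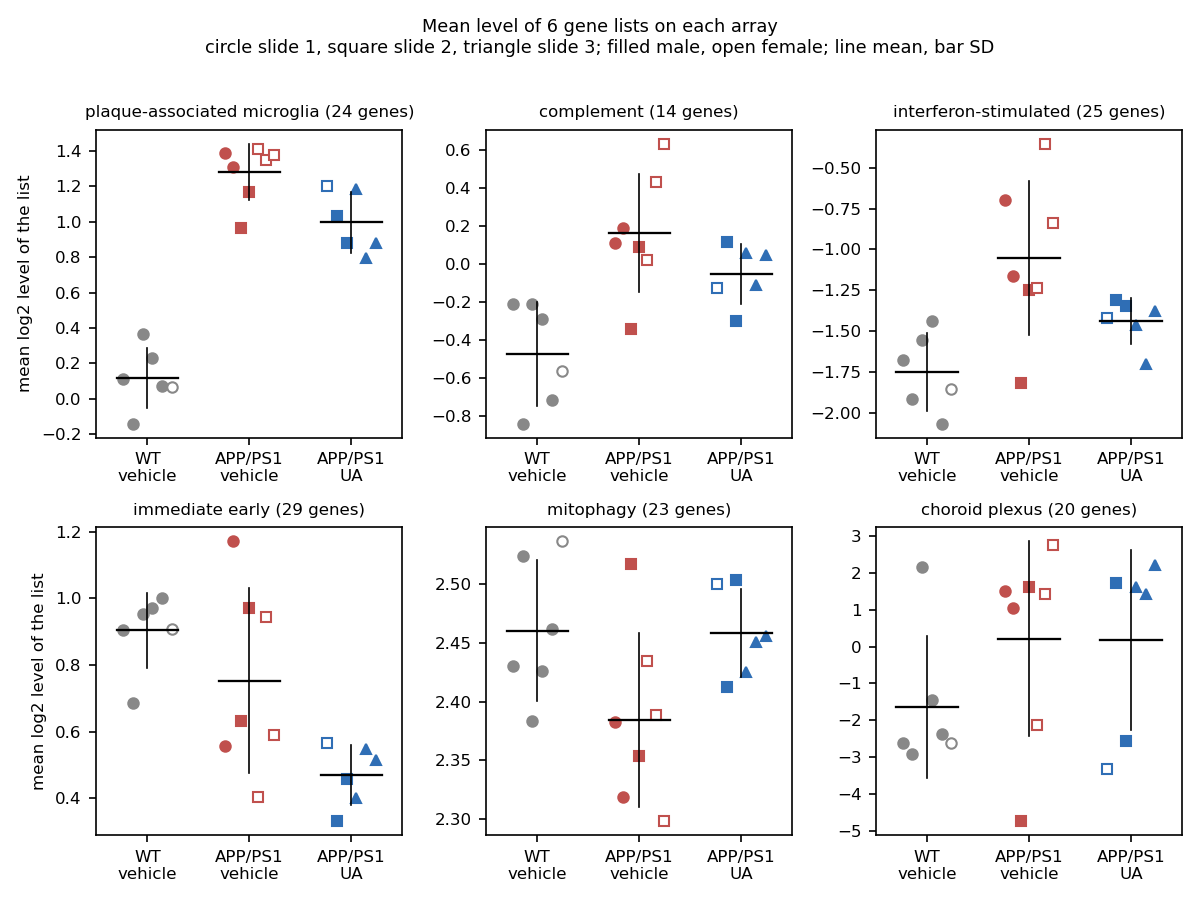
Mean log2 level of the measured genes of 6 lists (vertical axes) on each array of the 3 groups (horizontal axes), with symbols for slide, fill for sex, and lines and bars for mean and SD. The choroid plexus list spans -4.73 to 2.74 among vehicle arrays, and for the plaque-associated list UA replicate 5 of slide 3 is lowest at 0.80, with UA replicate 3 of slide 2 and UA replicate 6 of slide 3 both at 0.88.

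Other lists describe stress responses and the cells that the dissection could hold. At an unadjusted p under 0.05, 7 of 34 cytosolic ribosomal genes were lower (33 were below 0, median -0.13), among them Rps9 at -0.21 (SE 0.06), although the median became 0.04 as a green to red ratio. The glucocorticoid-responsive genes Zbtb16 and Fkbp5 differed by 0.43 (SE 0.15) and 0.20 (SE 0.09), and the antioxidant gene Hmox1 by -0.35 (SE 0.14), with list medians of -0.10 and 0.02. A second Fkbp5 probe differed by -0.01. The stress genes Atf3 and Shmt2 differed by -0.25 (SE 0.11) and -0.13 (SE 0.06), Neurod1, a neurogenic factor of granule cells, by 0.26 (SE 0.10), Ntrk3, a neurotrophin receptor gene, by 0.20 (SE 0.09), and Spink8, a pyramidal cell marker, by -0.23 (SE 0.11). All 12 oligodendrocyte genes were below 0, with a median of -0.21 over all arrays, -0.06 on slide 2 and, with 1 array left out at a time, between -0.41 (vehicle replicate 3) and -0.10 (UA replicate 3), and 0 of 12 had an unadjusted p under 0.05. The meninges and fibroblast list had a median of 0.28 over all arrays, -0.03 on slide 2 and 0.87 in males. The choroid plexus list had a median of -0.04 over all arrays, with its marker gene Ttr between -2.98 and 9.40 in vehicle arrays and between -0.35 and 8.92 in UA arrays. Blood (median -0.17), vessel (-0.07), thalamus (0.08), striatum (0.13) and cortex (0.17) genes had 0 members under an unadjusted p of 0.05. Single arrays moved some of these medians: without vehicle replicate 3 that of blood was -0.37, and without vehicle replicate 7 those of thalamus, striatum and cortex were 0.04, -0.03 and 0.04. The neuron marker Rbfox3 and the CA1 pyramidal cell marker Wfs1, which check the tissue label, had medians of 5.09 and 3.29 in UA arrays and 5.06 and 3.03 in vehicle arrays.

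Set beside the WT arrays, and with the WT arrays shared by both differences, the same genes had these values. C1qb stood 0.95 above WT in APP/PS1 vehicle arrays (adjusted p = 3.96e-05) and 0.41 above WT in UA arrays (adjusted p = 0.235). For Trem2 the values were 1.65 (adjusted p = 5.27e-07) and 1.07 (adjusted p = 0.000829), for Tyrobp 1.56 and 0.99, and for Cd52 2.02 and 1.29. Gfap stood 1.01 (adjusted p = 6.43e-05) and 0.61 (adjusted p = 0.0638) above WT, and Ctsd 1.03 and 0.58. Zfp9 was at -0.59 (adjusted p = 0.000331) and -0.20 (adjusted p = 0.527), Slitrk1 at -0.54 (adjusted p = 0.00960) and -0.07, and Nlgn1 at -0.40 (adjusted p = 0.0349) and -0.01. The immediate early genes differed from this order: Arc was at 0.11 in vehicle against WT and -0.79 in UA against WT, and Nr4a1 at -0.24 and -1.01, with adjusted p-values between 0.303 and 0.845. Several genes of smallest p also differed from it, with vehicle and UA means on opposite sides of WT. Among rises these were Rbm22 (-0.22 and 0.16), Sntg2 (-0.43 and 0.19), Dek (-0.14 and 0.20) and Eva1a (-0.01 and 0.32). Among falls they included Cfp (0.31 and -0.41), Kcp (0.30 and -0.12), Med12 (0.18 and -0.13) and Tle2 (0.14 and -0.22). Over all genes, 731 (2.86%) were higher and 557 (2.18%) lower in the APP/PS1 vehicle group than in WT at an adjusted p under 0.05, and 23 (0.0898%) were higher and 0 lower in UA than in WT. All WT arrays lay on slide 1, which held vehicle replicates 1 and 2 and no UA array. For UA against WT, slide and group cannot be told apart, and for vehicle against WT they largely coincide. Of the WT arrays only replicate 6 was female, and the choroid plexus list had a median of 1.80 in vehicle minus WT. The part of slide, sex and choroid plexus content in these differences from WT was not tested.

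**Figure D5:**
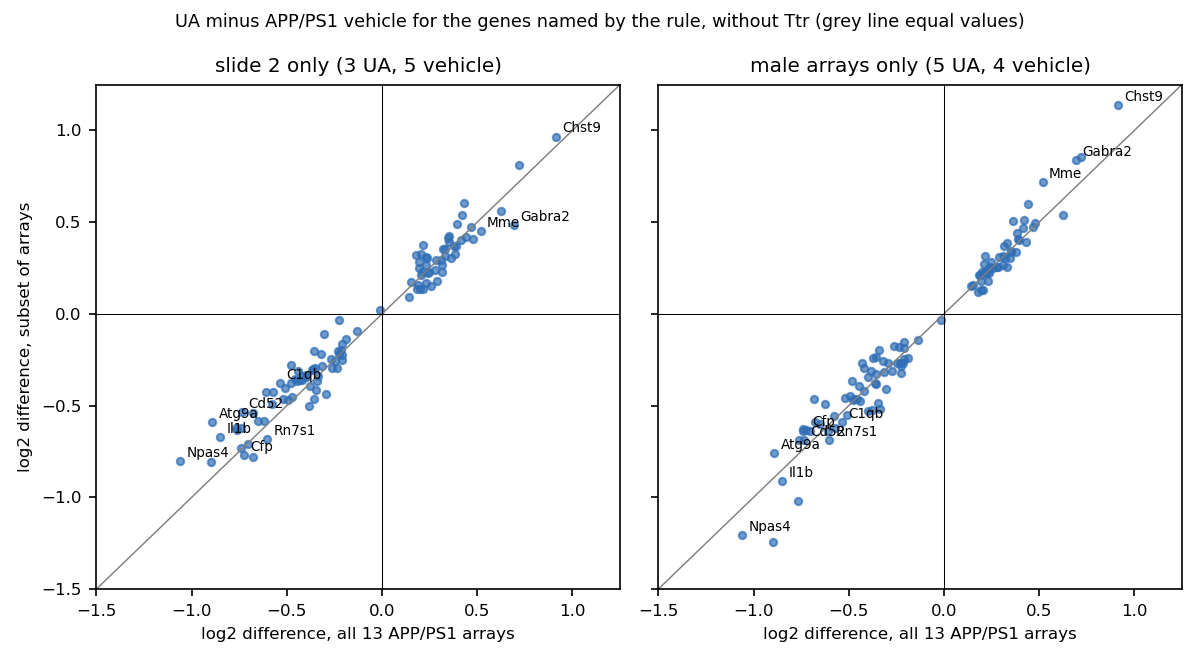
Log2 difference, UA minus APP/PS1 vehicle, of the genes named by the rule, for all 13 APP/PS1 arrays (horizontal axes) and for a subset of arrays (vertical axes): slide 2 only on the left and male arrays only on the right; Ttr is left out and the grey line marks equal values. Apart from Prnp on slide 2, near 0 in both, every point keeps its sign.

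Of 111 genes that the rule named, 110 kept their sign when UA and vehicle arrays were compared within slide 2 alone, the exception being Prnp (0.02), and 110 did so in the comparison of 5 UA with 4 vehicle arrays from males, the exception being Ttr (1.74). The genes were chosen on values that include these arrays, so the shared sign is no independent support. Within slide 2, C1qb differed by -0.38, Fcer1g by -0.38, Cyba by -0.40, Trem2 by -0.49 and Gabra2 by 0.48, each smaller than over all arrays, while Nlgn1 (0.37) and Ahr (0.39) were about as large. In males the differences were -0.59, -0.47, -0.55, -0.56 and 0.84 for the first group. The smallest adjusted p within slide 2 was 0.901 and in males 0.201. Since slide 3 held UA arrays alone and slide 1 no UA array, the differences outside slide 2 cannot be told apart from slide.

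At an adjusted p under 0.05, 2 of the alternatives run called any gene. Background correction by normexp without the scanner's dye normalization called 1682 genes, 1525 lower and 157 higher, with a median level of -3.71 against -0.97 for all genes, so mainly dim probes; 48 of the named genes were among them. With each array's choroid plexus mean as a covariate, 53 genes were called, 32 lower and 21 higher, with adjusted p-values just below the threshold for C1qb, Cyba and H2-Q10 (0.0499). Dividing each green signal by the red signal of the same spot turned the direction of the excess at an unadjusted p under 0.05. There 2783 genes were higher and 886 lower, against 1557 and 2402 in the main fit. The direction also turned with slide as a fixed block (1147 higher and 994 lower) and with slide and sex together (1465 and 1249). On slide 2 alone the counts were 601 higher and 565 lower. The direction did not turn with arrays as z-scores (1595 higher and 1787 lower), quantile normalization (1804 and 2188) or normexp (1441 and 5642). With the green to red ratio the C1qb and C1qa differences were -0.10 and -0.05, and those of Fcer1g, Cyba and Trem2 -0.42, -0.46 and -0.57.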

How the data were processed

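Total hippocampal RNA labelled with Cy3 was read on Agilent arrays, 1 array per sample. Per the file headers, the authors' scanner files were made with Agilent Feature Extraction 12.0.3.1 under a 2-colour expression protocol, and hold intensity values per spot: the processed green signal is background-subtracted and dye-normalized within the array. The deposited value table holds a score per probe, the z-score of log10 green signal on each array, to which the scanner values came within 0.00500.

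Here, control and non-uniform spots were left out, spots of a probe were averaged, 346 missing probe values were filled with the probe's mean, and log2 of the green processed signal was centred on each array's 75th percentile. Each gene was represented by its brightest probe, and 25599 genes with a probe well above background on at least 6 arrays were tested in limma 3.58.1 (R 4.3.3) over all 19 arrays with the 3 groups as terms and Benjamini-Hochberg adjustment. The script was tested on simulated data. Of 56605 probes, 32994 had a symbol, updated through RefSeq accessions where these matched. The labels tie no array to an animal by number, so the p-values measure the spread between these samples. Precision is limited by the number of arrays.

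The members of the comparison and its 46 gene lists (721 of 747 genes measured) were chosen with earlier results of these data known. The text names, among genes with a plain symbol and not Y-linked, the 15 of smallest unadjusted p in each direction, the 10 largest in each direction without overlap between groups and with an unadjusted p under 0.05, up to 3 genes of smallest p under 0.05 in each list, and App, Prnp and Ttr. Cell type and pathway markers outside this rule, such as Cst7, Itgax, Pink1 and Tfam, are given as checks. C1qc, C4b, Fos, Egr2, Ncf1, Ncf4, Rac2, Apoe, Spp1, Lpl and Ank were named after their values were seen. Alternatives changed the background correction, the scaling, the filter, the probes, the slide, sex and choroid plexus terms and the arrays used. Normexp used the median spot signal. The red channel, which the labels do not describe, entered only 1 alternative, chosen after seeing the data, as was the green signal without dye normalization. Results of some genes under the naming rule are not reported here.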

Additional observations from a re-analysis of the deposited data

Results flagged for a closer look

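Over the named genes and both APP/PS1 groups, 222 groups of arrays were examined for a single array far from the rest, and 18 (8.11%) had one; chance flags about 1 in 20 groups. Vehicle replicate 3, the dimmest array, was the lowest of its group for Gpr22 (-2.29) and Mrpl51 (3.42) and the highest for Rn7s1 (4.63) and Rplp1 (6.96). Vehicle replicate 5 was the highest for Dcun1d1 (1.75), Slitrk1 (2.02) and Prnp (8.36). Vehicle replicate 4 was the lowest for Irf8 (-0.54) and the highest for Lcn2 (-0.40), vehicle replicate 6 the highest for Fcgr1 (-1.37) and vehicle replicate 1 the highest for Il1b (-3.51). Among UA arrays, replicate 3 was the highest for Tle2 (1.68) and Cdk5r1 (5.24) and the lowest for Hmox1 (-1.15). UA replicate 1 was the highest for Nlgn1 (0.95) and Fkbp5 (1.78), replicate 2 the lowest for Ccdc65 (-1.19) and replicate 6 the lowest for Eva1a (0.84).

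The red channel carried signal although the labels describe no second RNA: between 55.1% and 67.3% of its probes were well above background over the 19 arrays.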

How the results depend on the processing

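No gene was called in the main fit. Normexp called 1682 genes and the choroid plexus covariate 53, and an adjusted p under 0.30 takes 3417; why the first of these differed was not tested. Every other alternative that was run, the slide block, sex covariate, slide 2, male arrays, array weights, other scalings and filters among them, called 0. With an array left out, 0 genes were called in each case, the smallest adjusted p ran from 0.0534 (without vehicle replicate 4) to 0.181 (without vehicle replicate 2), and 3140 to 4675 genes had an unadjusted p under 0.05. Deviations from the group mean had correlations between -0.28 and 0.39 for UA and vehicle arrays of the same replicate number. Differently numbered arrays were not compared, so whether the numbers pair the samples was not tested. With the replicate block 0 genes were called and 3138 had an unadjusted p under 0.05. That limit split into 1557 higher and 2402 lower in the main fit, 1441 and 5642 under normexp, 974 and 2618 without dye normalization, 1147 and 994 with slide as a fixed block, 601 and 565 on slide 2, and 2783 and 886 as a green to red ratio. Of 111 named genes 101 to 111 kept their direction. As a green to red ratio the sign turned for Nkain2 (-0.42), Gabra2 (-0.038), Dlgap1 (-0.28), Zbtb16 (-0.012), Cdk5r1 (-0.014), Neurod1 (-0.61), Calb1 (-0.30), Gdap1 (-0.083), Prnp (0.014) and Ttr (0.28). Over the mean of a gene's probes it turned for Csnk1d (-0.081), App (-0.040) and Prnp (0.0025). Prnp, at -0.01 in the main fit, also turned under normexp (0.044), quantile normalization (0.082), the deposited table (0.031), slide block and slide 2 (0.020 each), sex (0.045), both terms (0.072) and array weights (0.0016), and ran from -0.094 to 0.041 with an array left out. Ttr, at -0.15, turned with slide as a random block (0.10), in males (1.74) and with the replicate block (0.37), and ran from -1.69 to 1.15 with an array left out. Probes dimmer than background limit what can be said of Il1b and Lacc1, and 6 against 7 arrays limit the size of difference that could be called.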
